A study of Lilium davidii var. unicolor with 6 samples.

Results

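The transcripts described here are the 200 steadiest among the well-expressed transcripts of lily bulb scales, taken as candidate reference transcripts. They were chosen from a table of 14140 full-length transcript sequences. A transcript could be chosen if its mean over the 6 libraries was at least 20 CPM (the estimated count, scaled so that each library's column total is 1000000) and its length at least 500 bases. Of the 6582 transcripts that met both limits, the 200 with the lowest coefficient of variation (CV, the SD over the 6 CPM values divided by their mean) were kept, which is 3.04% of them. All 6 values of each transcript entered this choice. The low CVs and the small differences between treatments given below are therefore descriptions of what was chosen, with no test, and they support nothing further.

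Paired-end RNA sequencing had been run on scales of the edible Lanzhou lily, Lilium davidii var. unicolor, that were frozen on day 10 after being cut from the bulb. Control scales were soaked in distilled water for 3 h and then watered with it every 3 days (n = 3 libraries), and the other scales were treated in the same way with methane-rich water at 100% (MRW, n = 3 libraries). Both groups were kept in the dark in a damp perlite and vermiculite mix, and each biological replicate held 40 scales, so a library averages over many scales. The tissue is given as scale in the labels, and markers of the tissue could not be checked because the table holds no gene names.

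A bulb scale is a swollen storage leaf, and a detached scale can form new bulblets at its base. Measurements of RNA between such samples need something that stays level, because the amount of starting tissue, the RNA yield and the sequencing depth differ from sample to sample. In quantitative PCR this role is given to reference genes, usually genes for basic functions such as actin, tubulin, elongation factor 1-alpha, polyubiquitin or glyceraldehyde-3-phosphate dehydrogenase. In RNA sequencing it is given to a scaling factor per library. A reference is useful when it is abundant enough to measure well, does not respond to the treatment, and holds its level under the scaling that will be used. The rows are named by identifiers of the form used for PacBio full-length transcripts, so 0 of them could be matched to classical reference genes. Several identifiers can belong to 1 gene.

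Column totals ranged from 20988773 estimated counts in control replicate 2 to 28031469 in control replicate 3, with the MRW libraries between them. Values of a group are given here and below in the order of its replicates 1, 2 and 3. The members together took 4.26%, 4.18% and 4.19% of the control counts and 4.17%, 4.19% and 4.20% of the MRW counts. The means were 4.21% ± 0.0409 in control and 4.19% ± 0.0126 in MRW (SD, n = 3 each). The share was highest in control replicate 1, and the other 5 libraries lay close together.

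The CVs of the 200 members ran from 0.570% to 3.35% with a median of 2.85%. Over all 6582 transcripts that met the limits, the median CV was 10.0% and the interquartile range was 6.65% to 15.6%. The highest library of a member exceeded its lowest by a factor of 1.01 to 1.11, with a median of 1.08. The same factor had a median of 1.30 over the 6577 transcripts that were detected in every library. Within the control group the members had a median CV of 2.66%, and within the MRW group 2.20%. The corresponding medians over the transcripts that met the limits were 7.94% and 5.57%. No single library was the extreme one for most members. The highest value lay in control replicate 1 for 44 members, and in another library for 26 to 38 members each. The lowest value lay in control replicate 2 for 49 members and in MRW replicate 3 for 20.

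**Figure D1:**
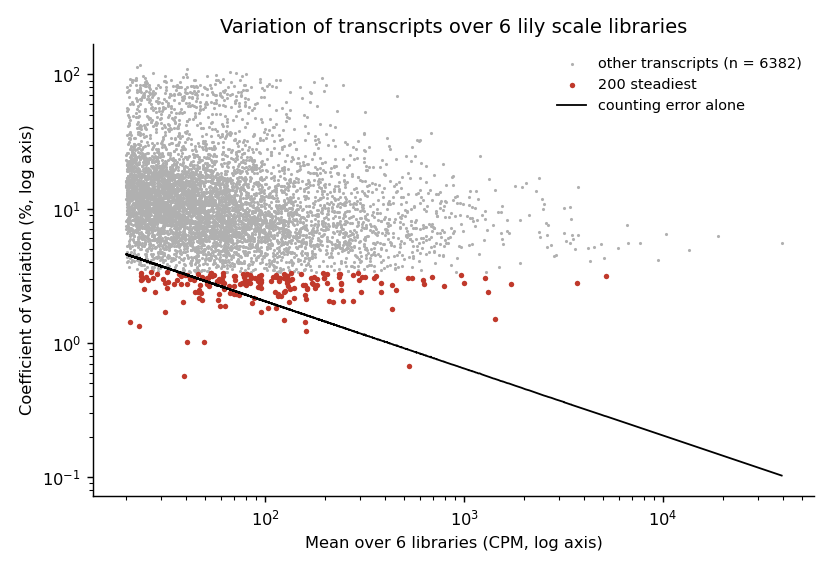
Coefficient of variation over the 6 libraries (%, log axis) against mean level (CPM, log axis) for the 6582 transcripts that met the limits on level and length. Red points are the 200 members, grey points the other 6382 transcripts, and the black line the CV that counting error alone gives on average; 61 members lie below the line.

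The member with the lowest CV was transcript_HQ_Ld3_vu_transcript22375/f2p0/960, a sequence of 960 bases. It stood at 39.0, 39.1 and 39.2 CPM in the control libraries and at 39.5, 39.0 and 39.5 CPM in the MRW libraries. Its mean was 39.2 ± 0.224 CPM (SD, n = 6), a CV of 0.570%, and the groups overlapped. Counting error alone gives a CV of 3.25% at this level, so its 6 values lay closer together than repeated counting of 1 sample would place them on average.

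The next was transcript_HQ_Ld3_vu_transcript21533/f8p0/1035, with 1036 bases and a level more than 10 times as high. It stood at 528, 532 and 523 CPM in the control libraries and at 523, 524 and 527 CPM in the MRW libraries. Control replicate 2 was the highest and control replicate 3 was level with the lowest MRW libraries, so the groups overlapped. The CV of 0.668% was below the 0.888% of counting error alone.

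Transcripts transcript_HQ_Ld3_vu_transcript22373/f3p0/966 and transcript_HQ_Ld3_vu_transcript25036/f5p0/780 followed with CVs of 1.01% each. The first held 39.7, 40.8 and 40.4 CPM in control and 40.2, 40.1 and 40.8 CPM in MRW. The second held 48.9, 49.1 and 50.3 CPM in control and 49.2, 49.7 and 49.6 CPM in MRW. In neither did the groups part. Transcript transcript_HQ_Ld3_vu_transcript20559/f3p0/1147 reached a CV of 1.22% at a mean of 161 ± 1.97 CPM (SD, n = 6), with MRW replicate 3 its highest library at 164 CPM and control replicate 2 its lowest at 159 CPM.

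The other 5 of the 10 lowest CVs ran from 1.33% to 1.51%. Transcripts transcript_HQ_Ld3_vu_transcript19236/f6p0/1261 and transcript_HQ_Ld3_vu_transcript20813/f2p0/1135 were near the lower limit of level, at means of 23.1 ± 0.307 and 20.9 ± 0.298 CPM (SD, n = 6). Transcript transcript_HQ_Ld3_vu_transcript22441/f3p0/968 had a mean of 159 ± 2.28 CPM and transcript_HQ_Ld3_vu_transcript20972/f11p0/1073 a mean of 124 ± 1.85 CPM (SD, n = 6). Transcript transcript_HQ_Ld3_vu_transcript21503/f5p0/1046 was by far the most abundant of the 10. It held 1454, 1401 and 1440 CPM in control and 1427, 1414 and 1401 CPM in MRW, and its CV of 1.51% was above the 0.540% that counting alone gives. Taken as 1 index, the geometric mean of the 10 was 99.1 ± 0.435 CPM in control and 98.8 ± 0.581 CPM in MRW (SD, n = 3 each), on the scale of column totals that chose them.

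**Figure D2:**
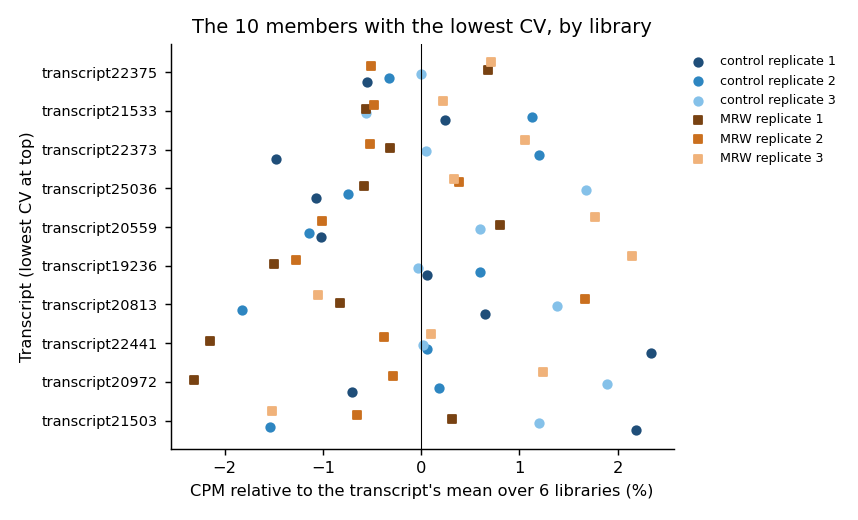
CPM of the 10 members with the lowest CV in each library, as the percent above or below the transcript's mean over the 6 libraries (horizontal axis). Circles are the 3 control and squares the 3 MRW libraries; the points of the 2 groups are mixed, and the transcripts are ordered from a CV of 0.570% at the top to 1.51% at the bottom.

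Counting error was of the same size as the CVs of many members. At the depth of these libraries it came to 4.46% for the least abundant member and to 0.283% for the most abundant one. The members' CV was 1.28 times the counting CV at the median, against 3.74 times over the transcripts that met the limits. In 61 members (30.5%) the CV was below the counting CV, and in 36 (18.0%) it was more than 2 times as large. Where the CV is below the counting CV, 6 libraries of this depth cannot rank a transcript against its neighbours in the list. These limits cover counting error only, since reads that are PCR copies are not independent molecules.

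The abundant members showed the reverse. The 5 with the highest mean included transcript_HQ_Ld3_vu_transcript21864/f3p0/1015, which held 5448, 5231 and 4989.9 CPM in control and 5030.2, 5217 and 5170.3 CPM in MRW. Control replicate 1 was the highest and control replicate 3 the lowest, with all MRW libraries between them. Its mean of 5181 ± 164 CPM (SD, n = 6) gave a CV of 3.16%, which was 11.2 times the counting CV. Transcript transcript_HQ_Ld3_vu_transcript22143/f29p0/984 had a mean of 3677 ± 102 CPM, transcript_HQ_Ld3_vu_transcript23047/f6p0/911 a mean of 1729 ± 47.2 CPM and transcript_HQ_Ld3_vu_transcript24436/f4p0/831 a mean of 1318 ± 31.6 CPM (SD, n = 6). Their CVs lay between 2.40% and 2.77%. Counting error was therefore a smaller part of the spread of these transcripts than of that of the members near 20 CPM. Each CV still rests on 6 libraries, whatever the level, so the spread itself is known only roughly. The fifth, transcript21503, is also among the 10 lowest CVs.

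Members were more abundant than the transcripts they were drawn from. The rule itself favours abundant transcripts, since the CV includes counting error, which falls with level. The 200 chosen by chi-square over sampling noise instead had a median of 32.1 CPM, so this trait depends on the measure. The members' median level was 93.2 CPM (interquartile range 53.1 to 170 CPM), against 48.9 CPM (30.2 to 94.7 CPM) over the transcripts that met the limits. Of the 3361 transcripts from 20 to below 50 CPM, 45 were members (1.34%). The share was 3.72% from 50 to below 100 CPM, 5.96% from 100 to below 500 CPM and 6.07% at 500 CPM or more, where 15 of 247 were members. Per length, the members' deposited values had a median of 134 FPKM (fragments scaled to the library total and the transcript length), against 52.3 FPKM. The CV computed from FPKM had a median of 2.85% as well, and 180 of the 200 would be chosen again from FPKM. Since FPKM is also scaled to the library total, this likeness was built in.

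The rule used length only as a minimum, and the members nevertheless had similar lengths. Their median was 983 bases, with an interquartile range of 848 to 1126 bases. Over the transcripts that met the limits the median was 1267 bases and the interquartile range 859 to 1843 bases. Lengths from 800 to below 1200 bases were found in 132 members (66.0%) and in 25.0% of the transcripts that met the limits. Only 5 members reached 1500 bases, leaving 195 (97.5%) below that length, where 60.7% of the transcripts that met the limits lay. Of the 1072 transcripts from 750 to below 1000 bases, 76 were members (7.09%), and of the 986 from 1000 to below 1250 bases, 75 (7.61%). The shares were 2.24% in the class from 500 to below 750 bases, 2.32% in that from 1250 to below 1500 bases and 0.316% in that from 1500 to below 2000 bases. At 3000 bases or more 0 of 345 transcripts were members.

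**Figure D3:**
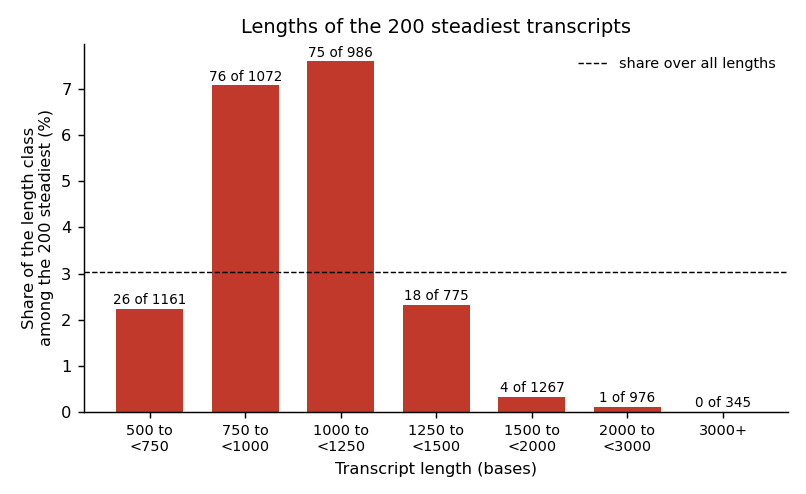
Share of each length class that belongs to the 200 members (%, bars from 0), among transcripts with a mean of at least 20 CPM; the numbers above the bars give members and transcripts in the class. The dashed line marks the 3.04% over all lengths, and only the 2 classes from 750 to below 1250 bases stand above it.

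The longest member was transcript_HQ_Ld3_vu_transcript5144/f2p0/2911, the only one of at least 2000 bases. It held 33.2, 32.4 and 31.5 CPM in control and 32.5, 31.1 and 31.3 CPM in MRW. The groups overlapped, and the CV of 2.56% was below the counting CV of 3.60%. Next in length were transcript_HQ_Ld3_vu_transcript14317/f6p0/1773, at 45.8 ± 1.49 CPM, and transcript_HQ_Ld3_vu_transcript15704/f7p0/1638, at 26.5 ± 0.888 CPM (SD, n = 6). The shortest were transcript_HQ_Ld3_vu_transcript28243/f4p0/552, transcript_HQ_Ld3_vu_transcript27866/f2p0/566 and transcript_HQ_Ld3_vu_transcript27666/f5p0/577, of 552, 570 and 577 bases. Their means were 79.3 ± 2.33, 44.6 ± 1.07 and 27.3 ± 0.836 CPM (SD, n = 6).

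The libraries themselves differed by length. Among transcripts of 3000 bases or more, the median deviation from a transcript's own mean on the log2 CPM scale was -0.19, 0.10 and -0.36 in the control libraries. It was 0.12, 0.22 and 0.12 in the MRW libraries. Control replicates 1 and 3 were thus low for long transcripts and the other 4 libraries high. From 500 to below 750 bases the order turned, with 0.04, -0.09 and 0.07 in the control libraries and values between -0.03 and 0.01 in the MRW libraries. From 1000 to below 1250 bases the 6 medians lay between -0.02 and 0.04. The median CV of the transcripts that met the limits was 6.73% from 750 to below 1000 bases, the lowest of the length classes, and it was 17.8% at 3000 bases or more. Across the 6582 transcripts, which are not independent replicates and share the 6 libraries, length and CV had a Spearman rho of 0.376. With a smooth trend on length removed from each library, the 200 steadiest transcripts had an interquartile range of 790.2 to 1560 bases, 145 of them were below 1500 bases, and 72 were members.

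**Figure D4:**
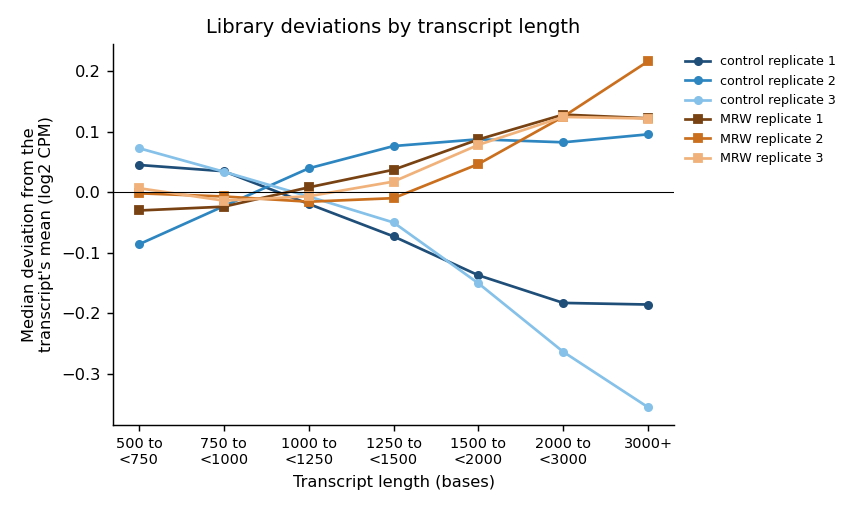
Median deviation of each library from the transcripts' own means (log2 CPM) by length class, over the 6582 transcripts that met the limits. Circles and blue lines are control, squares and brown lines MRW replicates; the 6 lines come together from 750 to below 1250 bases, the lengths of 151 members, and spread to between -0.36 and 0.22 at 3000 bases or more.

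The number of full-length reads behind each sequence, which the identifiers give after the letter f and which the rule did not use, was only slightly higher in members. Its median was 5 (interquartile range 3 to 8.25) against 4 (2 to 7) for the transcripts that met the limits. Sequences resting on 2 full-length reads made up 23.5% of the members and 28.8% of the transcripts that met the limits, and those with over 10 reads 18.5% and 15.9%. Full-length reads and mean CPM had a Spearman rho of 0.284 across the 200 members and of 0.251 across the 6582 transcripts, given as descriptions.

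The member with the most full-length reads, 57, was transcript_HQ_Ld3_vu_transcript22963/f57p0/891. It held 241, 251 and 248 CPM in control and 249.8, 239 and 249 CPM in MRW, so the groups overlapped. Transcripts transcript_HQ_Ld3_vu_transcript22362/f35p0/920, transcript_HQ_Ld3_vu_transcript23640/f30p0/793 and transcript_HQ_Ld3_vu_transcript24064/f26p0/805 had 35, 30 and 26 full-length reads and means of 238 ± 7.73, 296 ± 8.76 and 631 ± 17.3 CPM (SD, n = 6). The abundant transcript22143 had 29.

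Whole counts in every library were deposited for 134 members (67.0%) and for 52.5% of the transcripts that met the limits. The other 66 members had counts with decimals. Some programs give decimals by sharing a read among similar sequences, but how they arose in this table is not given in the sources used here. Of the 10 lowest CVs, transcript22375, transcript21533, transcript20813, transcript20972 and transcript21503 had whole counts. All members had HQ identifiers, as had all but 13 of the transcripts that met the limits.

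Between the treatments the members differed little on the scale that chose them. The log2 ratio of the MRW mean to the control mean, after adding 0.5 CPM, ran from -0.08 to 0.07 with a median of 0.00, and was above 0 in 108 members. Over the transcripts that met the limits its median was 0.06, and its interquartile range was -0.08 to 0.21. The highest ratio belonged to transcript_HQ_Ld3_vu_transcript25037/f5p0/754, with 131, 132 and 135 CPM in control and 139, 140.1 and 139.8 CPM in MRW. Transcript transcript_HQ_Ld3_vu_transcript21658/f5p0/1027 came next with a log2 ratio of 0.07, and transcript15704 had 0.07 as well. In transcript25037 all MRW values lay above all control values.

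The lowest ratio belonged to transcript_HQ_Ld3_vu_transcript22628/f2p0/935, with 24.0, 24.3 and 24.9 CPM in control and 23.0, 23.0 and 23.3 CPM in MRW. All MRW libraries were below all control libraries. The same held for transcript_HQ_Ld3_vu_transcript20187/f2p0/1173, with 38.5, 39.1 and 38.8 CPM in control and 37.2, 36.8 and 36.3 CPM in MRW, and for transcript_HQ_Ld3_vu_transcript25005/f5p0/760, whose log2 ratio was -0.07. Groups that did not overlap were seen in 27 members, 16 of them higher and 11 lower in MRW. Over the transcripts that met the limits the share was 39.7%, with 23.5% higher and 16.2% lower in MRW. The rule used these values, so nothing is read from the difference.

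In the test of MRW against control over all transcripts with enough counts (edgeR's quasi-likelihood test with TMM scaling and Benjamini-Hochberg adjustment), 0 of the 200 members had an adjusted p under 0.05, against 17.5% of the 13331 transcripts tested. The rule used the same values, so nothing is read from this. The members' adjusted p-values from edgeR ran from 0.144 to 0.940. At an unadjusted p under 0.05 there were 2 members (31% of all transcripts tested), transcript20187 and transcript_HQ_Ld3_vu_transcript19478/f3p0/1242. The limma-voom test called 0 members, beside 2427 of the 13331 transcripts tested. DESeq2 called 1, transcript19478 again (fitted log2 fold change -0.16, adjusted p = 0.0414), while it called 19.4% of all transcripts it tested. That transcript held 360.0, 365 and 354 CPM in control and 349, 338 and 341 CPM in MRW, lower in 3 of 3 MRW libraries. Without control replicate 2, edgeR called 14 members, all lower in MRW, where the background was 25% of all transcripts and 15.4% in the lower direction.

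Whether the members stood level depended on the scaling between libraries. TMM sets the factors so that most transcripts keep their level between libraries, whereas CPM by column total sets the sum of all counts equal. With TMM, the fitted log2 fold changes of all 200 members were below 0, from -0.16 to -0.01 with a median of -0.08. Over all transcripts tested the median was 0.02. The TMM factors were 0.951, 1.03 and 0.942 in control and 1.03 in each MRW library. Each factor shifts all transcripts of its library alike. The highest log2 ratio of a member by column total was 0.0718, in transcript25037, and its fitted value with TMM was -0.0095. The shared sign thus followed from the choice and these factors. With column totals the members' median was 0.00, and the median over all transcripts tested was 0.10. With upper quartile factors the medians were 0.04 and 0.14, and with RLE, the size factors of DESeq2, -0.08 and 0.01. The distance between the members and the typical transcript was about 0.1 on the log2 scale under each of the 4 scalings. This sameness is arithmetic, since factors per library shift all transcripts alike, and it is no agreement of 4 methods. The direction of the members' own change depended on which scaling was used. In TMM-scaled values the members' median deviation on the log2 scale was 0.07, -0.04 and 0.09 in control and -0.04 in each MRW library. Control replicate 2 thus stood with the MRW libraries, as it did in its TMM factor. The members were chosen to be level by column total, so these deviations reflect the factors.

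The label of steadiest transcripts is set by column totals, which are the rule itself. FPKM is scaled to the library total too and is no separate check. The label did not hold for TMM, RLE or upper quartile factors. In TMM-scaled CPM the members' CVs had a median of 5.11% and ran from 1.84% to 7.55%, against a median of 9.52% over the transcripts that met the limits. All 200 stayed below 10%, where 54.1% of the transcripts that met the limits lay, and 91 stayed below 5%. With CVs of at most 3.35% by column total and TMM factors from 0.942 to 1.03, staying below 10% was fixed by the choice. Only 26 members were among the 200 lowest CVs in TMM-scaled values, 18 with the DESeq2 size factors and 96 with upper quartile factors. None of the 10 lowest CVs by column total was among the 26. Transcript22375, for example, had a CV of 4.17% with TMM and transcript21503 one of 5.72%. The 200 chosen with TMM were longer, with a median of 1300 bases and an interquartile range of 1128 to 1529 bases.

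Of the 26 members kept with TMM, 15 were among the 200 lowest CVs with RLE and with upper quartile factors as well. These 15 were picked out after their values were seen, and their CVs are given as a description. Their lengths ran from 816 to 1774 bases and their means from 25.2 to 162 CPM. Their CVs lay between 2.09% and 3.35% by column total, between 1.84% and 3.17% with TMM, between 2.12% and 3.49% with RLE and between 2.25% and 3.47% with upper quartile factors. Whole counts were deposited for 11 of them.

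The lowest CV by column total among the 15 was that of transcript_HQ_Ld3_vu_transcript18964/f5p0/1281, of 1281 bases. It held 56.5, 57.6 and 55.9 CPM in control and 58.7, 57.8 and 59.0 CPM in MRW, all MRW values being above the control values by a small margin. Transcript transcript_HQ_Ld3_vu_transcript21388/f18p0/1045 had the lowest CV with TMM, 1.84%. By column total it held 127, 131 and 121 CPM in control and 131, 131 and 131 CPM in MRW, so that its values were spread in control (SD 5.16 CPM, n = 3) and close together in MRW (SD 0.179 CPM, n = 3). Transcript transcript_HQ_Ld3_vu_transcript22948/f8p0/905 held 93.3, 96.9 and 91.3 CPM in control and 95.8, 98.0 and 95.0 CPM in MRW. Control replicate 3 was the lowest library in all 3 of these transcripts. Transcript transcript_HQ_Ld3_vu_transcript24271/f4p0/816, with whole counts, held 69.7, 73.2 and 69.9 CPM in control and 73.3, 71.0 and 70.2 CPM in MRW, with the groups mixed.

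**Figure D5:**
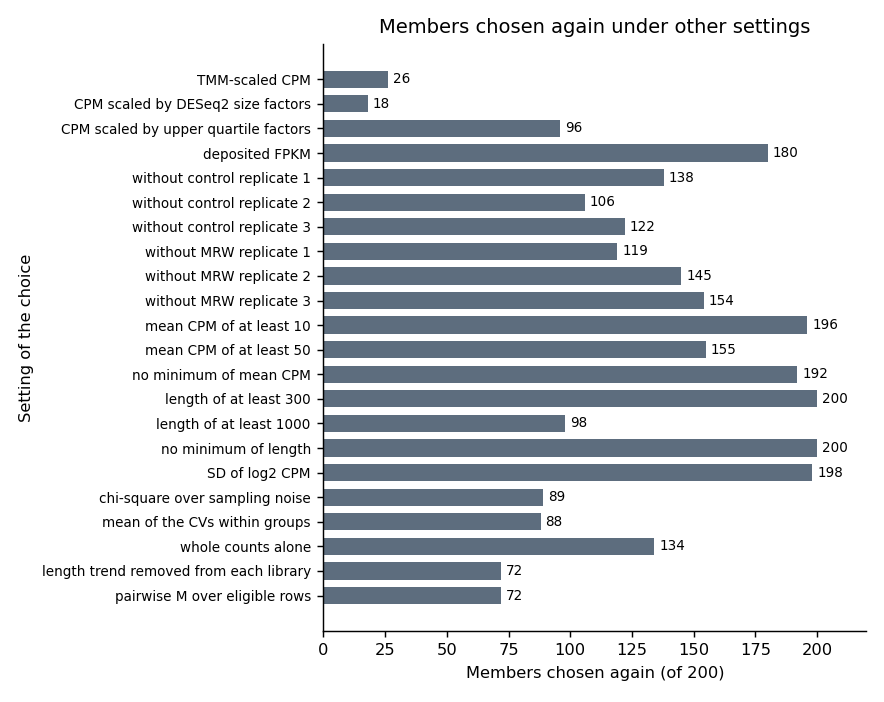
Number of the 200 members (horizontal axis, bars from 0) that are again among the 200 steadiest transcripts under each other setting of the choice (vertical axis). The scaling between libraries moved it most, to 18 and 26 with DESeq2 size factors and TMM, while other limits on level left 155 to 196.

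Ratios between transcripts of the same library need no scaling between libraries. For each pair of members the SD over the 6 libraries of the log2 ratio of their CPM (plus 0.5) was taken, and each member's mean over the other members is its M value, as in the geNorm method for reference genes. M within the members ran from 0.0395 to 0.0611 with a median of 0.0551. Over the 19900 pairs the SD ran from 0.00725 to 0.0921. The steadiest pair was transcript_HQ_Ld3_vu_transcript19602/f3p0/1224 over transcript_HQ_Ld3_vu_transcript23366/f11p0/868. Its ratio was 0.216, 0.217 and 0.214 in control and 0.214, 0.215 and 0.216 in MRW. With all 6582 transcripts as partners, the members' median M was 0.228 (0.220 to 0.238), against 0.265 over all of them. These values come from the same 6 CPM values that chose the members, so low M values among them were fixed by the choice and are a description only. The 200 transcripts with the lowest M over all partners included 72 members and had a median length of 1220 bases.

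A choice made on some libraries can be read in the others. When the 200 steadiest transcripts were chosen on the 3 control libraries alone, their median CV was 1.22% there. In the 3 MRW libraries, which the choice had not used, it was 5.30% (interquartile range 2.82% to 7.72%), against 5.57% (3.39% to 8.67%) over the 6581 transcripts detected there. In MRW 94 of these 200 stayed below 5%, a share of 47.0% against 43.4% of all. When chosen on the MRW libraries alone, the 200 had a median CV of 0.798% there. In the control libraries it was 5.95% (interquartile range 3.83% to 9.51%), against 7.94% (5.06% to 12.0%) over all, and 77 (38.5%) stayed below 5% against 24.5%. Low CVs over 3 libraries thus carried over to the other 3 only in small part. Other scalings, or 1 library left out of the choice, changed these medians. In control the list chosen on MRW then had 6.41% (FPKM) to 7.64% (without MRW replicate 2), always above 5.95%. In MRW the list chosen on control had 4.53% (upper quartile factors) to 5.84% (without control replicate 1). Lists chosen for the lowest CVs over 3 libraries are expected to rise in any libraries not used. Whether steadiness differs by treatment was therefore not tested. No p is given, since transcripts are not independent replicates.

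The lists from control alone and from MRW alone shared 13 transcripts, 6.50% of each, where each list holds 3.04% of the transcripts that met the limits. Of the 13, 7 are members, among them transcript22375, transcript21533, transcript22373 and transcript25036. The other 6 were steady within each treatment at different levels. For example, transcript_HQ_Ld3_vu_transcript25517/f2p0/721 had a mean of 145 CPM in control and of 170 CPM in MRW by column total, with CVs of 0.901% and 0.807% within the groups. In edgeR's quasi-likelihood test with TMM its log2 fold change was 0.14, with an adjusted p of 0.199. It was named after its values were seen.

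With 1 library left out of the choice, the 200 transcripts steadiest in the other 5 deviated in that library from the mean of the 5 by a median of 0.05 to 0.09 on the log2 scale, without regard to sign. The lowest value was found with MRW replicate 3 left out and the highest with control replicate 2 left out. The median deviation over all transcripts that met the limits was 0.11 to 0.16. In the 5 libraries used, the chosen transcripts deviated by 0.02 to 0.03. More than 10% away were 27, 52 and 34 of the 200 when control replicates 1, 2 and 3 were the library left out (13.5%, 26.0% and 17.0%). Over all transcripts that met the limits the shares were 52.2%, 43.1% and 56.3%. For the MRW libraries the numbers were 42, 14 and 9 (21.0%, 7.0% and 4.5%), beside 45.7%, 41.9% and 40.3%. In control replicate 2 the chosen transcripts were low, with a median signed deviation of -0.04, while the typical transcript was high, with 0.03. Of each of these lists, 191 to 196 transcripts were below 1500 bases, whichever library was left out. Chosen on control alone 180 of 200 were below 1500 bases, and chosen on MRW alone 144.

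At the limit of the choice the CVs ran on without a step. The last members were transcript_HQ_Ld3_vu_transcript18980/f3p0/1290 and transcript15704, both with a CV of 3.35%. The first outside were transcript_HQ_Ld3_vu_transcript19851/f17p0/1139, with 3.35%, and transcript_HQ_Ld3_vu_transcript25155/f2p0/749, with 3.36%. Transcript18980 held 31.7, 33.6 and 30.4 CPM in control and 31.8, 31.7 and 32.7 CPM in MRW, a spread below its counting CV of 3.61%. A CV below 5% was found in 763 of the 6582 transcripts, so the 200 are the low end of a larger group.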

How the data were processed

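Estimated counts and FPKM per transcript were deposited by the authors for 6 libraries. Per the submitters' processing notes Subread was used, with no role given. The design text names the soybean genome while the rows are lily transcript identifiers, so the alignment target is uncertain. How reads were counted, and whether by strand, is not given in the sources used here. Estimated counts were deposited without normalization, and FPKM values were used as deposited by the authors. Every per-sample column was used. A count was called whole within 0.005.

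CPM, CV, the counting CV (from each transcript's expected counts) and pairwise M were computed in Python 3.11.15. For the test, counts were rounded to whole numbers, filtered with filterByExpr (minimum count 10, minimum total 15) and fitted with edgeR 4.0.16 (glmQLFTest, treatment as the only term, adjusted p threshold 0.05). DESeq2 1.42.0 and limma 3.58.1 were alternatives. The edgeR fit and the choice of steady transcripts were also run on simulated data with clearer contrasts than in these libraries. Those runs checked the code only and say nothing about the members. The members, lists and tests were chosen with earlier results of these data known. Transcripts were named by rank: the 10 lowest CVs, the 5 highest means, the 5 with the most full-length reads, the 3 longest and shortest, the 3 highest and lowest ratios of MRW to control, and those at the limit; others were named after their values were seen. The labels do not say how culture or sequencing was batched, and p-values measure the spread between these libraries.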

Additional observations from a re-analysis of the deposited data

How the results depend on the processing

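Alternative values were taken of the number of members chosen again, the members' CV, calls and fold changes, and the CVs in the other treatment. Of these 93 values, 21 were counted as moved and 72 were not. The limit for this was not alike for all results, so the tally is no measure of how well they hold. For members chosen again, 122 (without control replicate 3) counted as moved and 134 (whole counts alone) did not. The 72 were not all near the reported value. Among them, transcripts called ran from 1603 (without MRW replicate 2) to 3378 (upper quartile factors), against 2334 in the main fit. The CV in control of the list chosen on MRW was 7.64% without MRW replicate 2, against 5.95% in the main choice. Over all transcripts that met the limits it was 7.94%. The members chosen again numbered 26 with TMM, 18 with DESeq2 size factors, 96 with upper quartile factors, 98 at a length of at least 1000 bases, 89 by chi-square over sampling noise and 88 by the mean of the CVs within groups. They numbered 72 with a length trend removed and 72 by pairwise M, both added after seeing the data. With each library left out they numbered 106 (control replicate 2) to 154 (MRW replicate 3). The members' median CV was 5.11% with TMM, 5.46% with DESeq2 size factors and 3.67% with upper quartile factors. Their median fold change without regard to sign (log2) was 0.0780 with TMM, 0.0415 with upper quartile factors, 0.0263 with column totals, 0.0279 with the members' sum as library size and 0.0298 with the length trend removed. It was 0.0551 to 0.125 with each library left out. Calls among members were 0 except 1 with DESeq2 and 14 without control replicate 2. The cause was not tested. In the fit with the replicate block 0 members and 1844 transcripts were called. Deviations from the group means correlated by -0.0682 to -0.0142 between libraries of equal number, and 0 of the 6 correlated best with its own number, so they were not treated as pairs. Near 20 CPM the depth limits the CV that can be resolved to about 4.46%.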
